A study of Homo sapiens with 2 samples.

Results

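The cell surface genes CD34, KIT, FLT3, PROM1, CD38, THY1, CD96 and CD44 were examined in the DNA methylomes of 2 human AML cell lines. These 8 genes, of 20163 protein-coding genes in the annotation, were taken because their proteins are used to mark blood stem and progenitor cells or leukaemic stem cells. All CpG dinucleotides in each gene and within 2000 bp of each of its annotated transcription start sites (TSSs) were taken, which gave 7853 of the 28217448 CpG dinucleotides listed. OCI-AML3 is an established line with a heterozygous missense mutation in DNMT3A, and AML5 is an established line without a DNMT3A mutation that is entered in its sample record as OCI-AML5. Neither line was treated, both were grown in culture, and each was measured in 1 whole-genome bisulfite sequencing library, so there were no replicates. The lines come from different leukaemias, so DNMT3A status and line identity cannot be told apart.

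A haematopoietic stem cell carries a set of surface proteins that is exchanged as the cell matures, and antibodies to these proteins are used to sort stem cells, progenitors and leukaemic stem cells. CD34, KIT, FLT3, PROM1 and THY1 are carried by immature cells, CD38 is gained by committed progenitors, CD96 is used to pick out leukaemic stem cells, and CD44 is an adhesion receptor on many blood cells. DNMT3A is a DNA methyltransferase that adds methyl groups to CpG dinucleotides without a methylated template. CpG-rich promoters are usually free of methylation and gene bodies usually carry it. A methylation level is the share of reads in which a cytosine survived bisulfite, and it is no measure of how much RNA or surface protein a cell makes. In a cell population, an intermediate level cannot show whether cells or alleles differ.

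Calls numbered 902802339 for OCI-AML3 and 894828667 for AML5, and the median nuclear CpG dinucleotide had 27 and 30 of them. Over the 8 genes the mean number of calls per CpG dinucleotide ranged across promoters between 17.2 and 61.7 for OCI-AML3 and between 24.8 and 48.8 for AML5, and across gene bodies between 18.8 and 48.9, and between 25.6 and 44.3. At the genome-wide medians of 27 and 30 calls, 3 calls correspond to a share of 11.1% in OCI-AML3 and 10.0% in AML5. The share is larger where depth is lower. Mean levels were taken over the CpG dinucleotides that each line covered by more than 5 reads, and differences are given as OCI-AML3 minus AML5 in percentage points. A CpG dinucleotide is named called where Fisher's exact test on its reads gave an adjusted P-value under 0.05 after Benjamini–Hochberg adjustment over all 24454751 CpG dinucleotides tested. That test compares the reads of 2 libraries and not cultures of the lines. Of the CpG dinucleotides tested genome-wide, 14.7% were called lower in OCI-AML3 and 3.86% were called higher. Within 2000 bp of any TSS of protein-coding genes the shares were 12.5% and 4.12%, and in gene bodies away from TSSs they were 13.4% and 2.95%. These shares are the background for the counts given by gene.

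The 5 stretches of sequence from these promoter regions printed next were selected because they hold the CpG dinucleotides on which the gene-by-gene accounts turn. They are reference sequence of GRCh37, written 5′ to 3′ on the strand of the gene, and CG in capitals marks each CpG dinucleotide called in the direction named. The first 2 are among 4 found by a rule (the 4 promoters with the largest mean difference, and in each the stretch of at most 300 bp outside untranslated regions with the most calls in 1 direction), of which the others are not shown here, and the last 3 were chosen after their values were seen.
CD34, chr1:208083927-208084205, minus strand, called lower: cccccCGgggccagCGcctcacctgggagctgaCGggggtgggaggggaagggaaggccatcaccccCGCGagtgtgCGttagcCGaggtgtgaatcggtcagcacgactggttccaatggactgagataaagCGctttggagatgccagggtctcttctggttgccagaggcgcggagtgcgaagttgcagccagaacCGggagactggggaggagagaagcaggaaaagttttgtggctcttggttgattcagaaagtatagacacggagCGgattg
PROM1, chr4:16084414-16084608, minus strand, called lower: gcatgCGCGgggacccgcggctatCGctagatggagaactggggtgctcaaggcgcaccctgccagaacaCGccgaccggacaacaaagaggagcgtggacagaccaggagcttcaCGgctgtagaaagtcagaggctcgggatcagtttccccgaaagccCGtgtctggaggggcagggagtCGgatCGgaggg
KIT, chr4:55524314-55524590, plus strand, called higher: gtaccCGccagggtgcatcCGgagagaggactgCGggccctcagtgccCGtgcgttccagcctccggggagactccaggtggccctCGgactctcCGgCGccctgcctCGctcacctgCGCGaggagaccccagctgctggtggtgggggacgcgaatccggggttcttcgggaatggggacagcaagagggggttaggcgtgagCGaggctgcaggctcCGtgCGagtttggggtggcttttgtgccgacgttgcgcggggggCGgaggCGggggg
FLT3, chr13:28673669-28673922, minus strand, called higher: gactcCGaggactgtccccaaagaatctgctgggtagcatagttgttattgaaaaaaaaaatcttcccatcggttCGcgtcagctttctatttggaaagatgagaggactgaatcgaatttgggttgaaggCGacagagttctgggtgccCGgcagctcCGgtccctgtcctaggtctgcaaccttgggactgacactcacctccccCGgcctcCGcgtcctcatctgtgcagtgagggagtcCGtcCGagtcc
THY1 intron 1, chr11:119293316-119293613, minus strand, called lower: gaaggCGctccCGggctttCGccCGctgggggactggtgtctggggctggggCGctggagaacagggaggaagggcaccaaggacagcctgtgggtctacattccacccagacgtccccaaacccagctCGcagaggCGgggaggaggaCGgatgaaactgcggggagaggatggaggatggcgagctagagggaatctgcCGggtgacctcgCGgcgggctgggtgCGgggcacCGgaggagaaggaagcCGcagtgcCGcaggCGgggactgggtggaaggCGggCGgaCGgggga

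Across the 8 genes, 6851 CpG dinucleotides were tested, of which 1497 were called lower in OCI-AML3 (21.9%) and 143 were called higher (2.09%). CD96 held 753 of the CpG dinucleotides called lower, and without CD96 the share called lower in the remaining genes was 13.8%. By gene, the share called lower was 52.2% for CD96, 32.0% for KIT, 29.2% for THY1, 15.9% for CD34, 15.2% for PROM1, 6.76% for FLT3, 4.99% for CD38 and 4.71% for CD44. CD96, KIT and THY1 therefore stood above the genome-wide share, CD34 and PROM1 stood close to it, and FLT3, CD38 and CD44 stood below it. KIT had the highest share called higher, 3.86%, which equalled the genome-wide share to the digits given.

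Each promoter was measured in a window reaching 2000 bp up and down from the most upstream TSS. A mean difference of more than 20 percentage points was found at 1 promoter of the 8, that of CD96, and it was lower in OCI-AML3. Of 19667 protein-coding promoters with at least 10 CpG dinucleotides, 8.61% were lower by more than 20 percentage points and 1.79% were higher, so 1 of 8 is close to the background. The mean was lower in OCI-AML3 at 7 of the 8 promoters, beside 84.7% of all promoters, and FLT3 was the exception. The median promoter difference was −4.28 percentage points over the 8 genes and −4.68 over all promoters. With the TSS of the canonical transcript in place of the most upstream one, THY1 passed 20 percentage points as well as CD96. With the 2000 bp upstream alone the difference was −19.6 percentage points for CD34, −17.2 for PROM1, −12.2 for CD44, −9.30 for CD38 and −5.21 for KIT. These other windows were not measured over all promoters, so their values have no background.

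Gene bodies, which were taken as the CpG dinucleotides of a gene more than 2000 bp from every TSS, had a lower mean in OCI-AML3 in 8 of 8 genes, beside 92.4% of all gene bodies. KIT and CD96 were lower by more than 20 percentage points, which 7.67% of 17276 gene bodies were, and no member was higher by that much, which 0.509% were. The median gene body difference was −6.80 percentage points over the 8 genes and −4.85 over all gene bodies. The 200 kb on either side of KIT and CD96 were also lower, by 25.6 and 30.6 percentage points on average, so in these genes the difference was not confined to the gene. The median over the flanks of the 8 genes was −8.06 percentage points.

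KIT is the receptor tyrosine kinase for stem cell factor and lies at chr4:55523434-55606949 on the plus strand of GRCh37. Its promoter means were close, 22.5% in OCI-AML3 and 24.7% in AML5 across 201 CpG dinucleotides, while its body mean was 63.6% in OCI-AML3 and 88.8% in AML5 across 433 CpG dinucleotides. The promoter held CpG dinucleotides called in both directions, 32 lower (15.9%) and 25 higher (12.4%), beside 12.5% and 4.12% within 2000 bp of any TSS. Its difference of −2.22 percentage points depended on the window, and was −7.32 within 1000 bp, −4.57 at the canonical TSS and −14.1 over the windows of every TSS. The CpG island that contains the canonical TSS, from −906 to 1707 bp, had means of 19.1% and 22.9% over 206 CpG dinucleotides, of which 36 were called lower and 24 higher.

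Within this island the called CpG dinucleotides of KIT lay in blocks. Runs are 3 or more consecutive tested CpG dinucleotides called in the same direction, with neighbours at most 300 bp apart. A run of 11 across the border of exon 1 and intron 1, chr4:55524178-55524261, averaged 8.70% in OCI-AML3 and 51.8% in AML5. In that run the CpG dinucleotide with the largest difference was methylated in 5 of 59 calls in OCI-AML3 (8.47%, Wilson 95% interval 3.67 to 18.4) and in 35 of 48 in AML5 (72.9%, 59.0 to 83.4), with an adjusted P-value of 1.4e-10 by Fisher's exact test. The direction changed at the next run, which held 4 CpG dinucleotides in intron 1 from 195 to 238 bp and averaged 77.0% in OCI-AML3 and 21.2% in AML5. Further runs that were higher in OCI-AML3 followed at 276 to 310 bp (52.5% and 11.8%), 395 to 414 bp (47.8% and 0%) and 939 to 982 bp (35.6% and 2.00%). The runs from 195 to 414 bp fall in the KIT sequence printed above, in which 15 of 26 tested CpG dinucleotides were called higher, and none was called lower. The means were 39.4% in OCI-AML3 and 9.99% in AML5 for all 26, and 56.9% and 10.7% for the capitals, which were selected by their calls. In the run from 939 to 982 bp, the CpG dinucleotide with the largest difference lay at 943 bp. There 37 of 76 calls were methylated in OCI-AML3 (48.7%, Wilson 95% interval 37.8 to 59.7) and 0 of 71 in AML5, which allows a share of up to 4.23% (adjusted P = 6.1e-12, Fisher's exact test).

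Past the island the means of KIT were lower in OCI-AML3, but the difference was patchy. Of 433 body CpG dinucleotides, 210 were over 80% in OCI-AML3 and 375 in AML5. A small island at chr4:55546559-55546901 had means of 95.7% and 96.8%, and none of its 12 CpG dinucleotides was called. A run of 7 from 1976 to 2616 bp averaged 11.0% in OCI-AML3 and 93.7% in AML5. All 11 CpG dinucleotides of a small intronic CpG island at chr4:55548775-55549090 were called lower, with means of 19.3% and 86.8%, and they lie in a run of 13 in intron 1. In the body of KIT, 37.0% of CpG dinucleotides were called lower, beside 13.4% over all gene bodies, and 1.39% were called higher, beside 2.95%. When the gene was cut into 5 equal parts from the TSS, the difference was −31.5, −22.2, −33.6, −22.7 and −15.2 percentage points, so each part was lower. Introns differed more than exons (−26.3 and −16.9 percentage points). One run in the body went the other way, with 3 CpG dinucleotides in intron 1 at chr4:55554125-55554155 that averaged 75.2% in OCI-AML3 and 5.58% in AML5. In all KIT had 25 runs that were lower and 5 that were higher.

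FLT3 is the receptor tyrosine kinase for FLT3 ligand and is often mutated in AML. The gene lies at chr13:28577411-28674729 on the minus strand. Its promoter was low in both lines, 14.0% in OCI-AML3 and 12.1% in AML5 across 167 CpG dinucleotides, and its body was high in both, 85.5% and 89.8% over 1069. Of the body CpG dinucleotides, 7.30% were called lower and 1.78% higher, beside 13.4% and 2.95% over all gene bodies. FLT3 was the only member with a higher promoter mean in OCI-AML3, by 1.87 percentage points, and the sign turned to −1.82 when every call was counted once and to −9.93 when the 2000 bp upstream were used alone.

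The FLT3 promoter held 2 opposite local differences around an island that differed little. The island over the TSS, chr13:28674015-28675329, had means of 2.02% and 1.63% over 130 CpG dinucleotides, of which 1 was called in each direction. A second, smaller island in intron 1, chr13:28673645-28673942, had means of 75.0% in OCI-AML3 and 19.1% in AML5, and 9 of its 13 CpG dinucleotides were called higher. These 9 are the capitals of the FLT3 sequence printed above, with a mean of 84.9% in OCI-AML3 and 18.6% in AML5. The single levels of these selected 9 were between 50.0% and 100% in OCI-AML3 and between 0% and 54.2% in AML5. In the run from 923 to 1006 bp, the CpG dinucleotide with the largest difference lay at 942 bp. There all 25 calls were methylated in OCI-AML3 (Wilson 95% interval 86.7 to 100%) and 2 of 22 in AML5 (9.09%, 2.53 to 27.8), with an adjusted P-value of 1e-09 by Fisher's exact test. A stretch under 20% is one that ends at 2 CpG dinucleotides in a row at 20% or more, so that it can hold isolated ones above. For each gene the stretch with the most CpG dinucleotides under 20% is given. In FLT3 it began at −456 bp in both lines and ended at 679 bp in OCI-AML3 (126 of 128 CpG dinucleotides under 20%) and at 942 bp in AML5 (132 of 135).

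Upstream of FLT3 the order was the opposite. A run of 4 from −1774 to −1648 bp averaged 12.1% in OCI-AML3 and 80.5% in AML5. Its most different CpG dinucleotide was methylated in 3 of 31 calls (9.68%, Wilson 95% interval 3.35 to 24.9) and in 33 of 35 (94.3%, 81.4 to 98.4), with an adjusted P-value of 3.3e-11 by Fisher's exact test. The other 5 runs that were lower lay in introns 2, 3, 9 and 15, with means between 12.3% and 26.8% in OCI-AML3 and between 88.5% and 95.8% in AML5.

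CD34 is a sialomucin of stem and progenitor cells and of endothelium, used in the clinic to count and select grafts, and lies at chr1:208054317-208084747 on the minus strand. Its promoter was at an intermediate level, with means of 49.9% in OCI-AML3 and 57.9% in AML5 across 99 CpG dinucleotides, of which 21 were called lower and 1 higher. The share called lower was 21.2% there, beside 12.5% over all CpG dinucleotides within 2000 bp of a TSS, where 4.12% were called higher. The island over the canonical TSS, from −199 to 848 bp, had means of 39.4% and 45.7%, and 11 of its 67 CpG dinucleotides were called lower. The stretch under 20% at the TSS lay between 14 and 146 bp in OCI-AML3 (18 of 21 CpG dinucleotides) and between −4 and 139 bp in AML5 (17 of 19). The promoter difference of −8.04 percentage points was −12.5 with every call counted once.

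Methylation on either side of that stretch separated the lines. A run of 7 in intron 1 from 271 to 350 bp of CD34, within the printed sequence, averaged 13.1% in OCI-AML3 and 56.0% in AML5. In that run the CpG dinucleotide with the largest difference lay at 343 bp. There 7 of 70 calls were methylated in OCI-AML3 (10.0%, Wilson 95% interval 4.93 to 19.2) and 23 of 33 in AML5 (69.7%, 52.7 to 82.6), with an adjusted P-value of 4.3e-08 by Fisher's exact test. The means were 41.0% and 67.1% for all 16 tested CpG dinucleotides of the CD34 sequence, and 25.6% and 64.2% for the 10 capitals. Upstream, a run of 4 from −472 to −242 bp averaged 18.4% and 55.3%. The body was at 80.3% and 83.1% over 167 CpG dinucleotides, but exons and introns moved apart: exons were lower by 10.3 percentage points (69.9% and 80.2%) and introns were higher by 2.74 (88.0% and 85.3%). A run of 6 in exon 8, the last exon, averaged 49.6% and 86.1%. A run of 3 in intron 1 at chr1:208077643-208077759 went the other way, at 74.3% and 20.5%.

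PROM1 encodes prominin 1, a glycoprotein of membrane protrusions that marks several kinds of stem cell, and lies at chr4:15964699-16086001 on the minus strand. The promoter means were 32.8% in OCI-AML3 and 39.2% in AML5 across 158 CpG dinucleotides, of which 34 were called lower and 18 higher. As in KIT, calls went in both directions. Over all CpG dinucleotides within 2000 bp of a TSS, 12.5% were called lower and 4.12% higher. The island from −219 to 1753 bp held 35 CpG dinucleotides called lower and 18 called higher of 151, with means of 30.2% and 37.0%. Reading into the gene from the TSS, runs of both directions were interspersed. A run of 7 from 179 to 211 bp was lower (31.8% and 74.9%), runs of 4 from 240 to 261 bp (54.9% and 22.9%) and from 294 to 319 bp (30.7% and 3.36%) were higher, and runs of 5 from 782 to 826 bp (22.2% and 70.4%) and of 3 from 1200 to 1227 bp (18.0% and 54.0%) were lower. Further in, a run from 1523 to 1571 bp was higher (81.6% and 48.9%) and a run of 7 from 1614 to 1695 bp was lower (31.4% and 71.3%).

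The stretch with the most CpG dinucleotides under 20% in PROM1 reached between 801 and 1322 bp in OCI-AML3 (37 of 41) and between 1271 and 1322 bp in AML5 (10 of 10). The sequence printed above lies in the first of these. Its 16 tested CpG dinucleotides averaged 12.8% in OCI-AML3 and 37.7% in AML5. The 8 capitals among them averaged 9.68% and 53.5%. The body of PROM1 had means of 77.6% and 86.9% over 1024 CpG dinucleotides, of which 14.1% were called lower, close to the 13.4% over all gene bodies. The body run with the most CpG dinucleotides was in intron 2, chr4:16058639-16059307, where 7 CpG dinucleotides averaged 12.0% and 89.8%. At its most different CpG dinucleotide 0 of 59 calls were methylated in OCI-AML3, which allows a share of up to 5.08%, and 36 of 40 in AML5 (90.0%, Wilson 95% interval 76.9 to 96.0; adjusted P = 2.6e-20, Fisher's exact test).

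CD38 is an ectoenzyme that makes cyclic ADP-ribose from NAD, and its absence on CD34-positive cells is used to enrich stem cells. The gene lies at chr4:15779898-15854855 on the plus strand. Promoter means were 10.1% in OCI-AML3 and 12.0% in AML5 across 105 CpG dinucleotides, of which 4 were called lower and none higher. Within 2000 bp of any TSS the shares were 12.5% and 4.12%. From −72 to 1336 bp, 92 of 92 CpG dinucleotides were under 20% in each line. Body means were 87.1% and 90.4%, with 5.58% called lower, beside 13.4% over all gene bodies.

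Against this, CD38 had 1 short element with nearly opposite values. At chr4:15813951-15814220, in intron 1, a small CpG island averaged 11.7% in OCI-AML3 and 90.8% in AML5. In it 8 of 8 CpG dinucleotides were called lower, beside 13.4% over all gene bodies, and the share over all islands was not computed. Single levels there were between 0% and 33.3% in OCI-AML3 and between 87.5% and 100% in AML5. These 8 form a run and so were selected by their calls, from which the separation of the lines follows in part. Calls averaged 15.1 per CpG dinucleotide in OCI-AML3 and 33.0 in AML5. The most different CpG dinucleotide had 0 of 13 methylated calls in OCI-AML3, which allows a share of up to 23.1%, and 35 of 35 in AML5 (Wilson 95% interval 90.1 to 100%; adjusted P = 2.6e-10, Fisher's exact test). The other 2 runs of CD38 were also lower and in intron 1, from 3340 to 3451 bp (4.67% and 39.2%) and from 27605 to 27862 bp (33.0% and 92.7%).

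THY1 is a small glycoprotein held in the membrane by a lipid anchor and marks the most immature human stem cells. The gene is the shortest of the 8, at chr11:119286186-119295695 on the minus strand, and its most upstream TSS lies 1813 bp before the canonical one. Around the most upstream TSS the means were 69.3% in OCI-AML3 and 86.1% in AML5 across 64 CpG dinucleotides. Around the canonical TSS they were 42.7% and 62.8% over 121, of which 47 were called lower and 4 higher. The share called lower was 38.8% there, beside 12.5% within 2000 bp of any TSS. The island over the canonical TSS, from −192 to 734 bp, averaged 24.7% and 54.6%, with 34 of 58 CpG dinucleotides called lower and none higher.

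In THY1 the unmethylated stretch was wider in OCI-AML3. CpG dinucleotides under 20% reached between 213 and 1048 bp in OCI-AML3 (41 of 42) and between 710 and 1030 bp in AML5 (9 of 11). The THY1 sequence printed above lies in intron 1 in the part where the 2 stretches differ, and 18 of its 23 tested CpG dinucleotides were called lower. The mean was 1.97% in OCI-AML3 and 35.9% in AML5 for all 23, and 1.66% and 41.3% for the 18 capitals. The 67 CpG dinucleotides of the body, which all lie in exon 4, had means of 83.1% and 95.1%. All 8 runs of THY1 were lower in OCI-AML3.

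**Figure D1:**
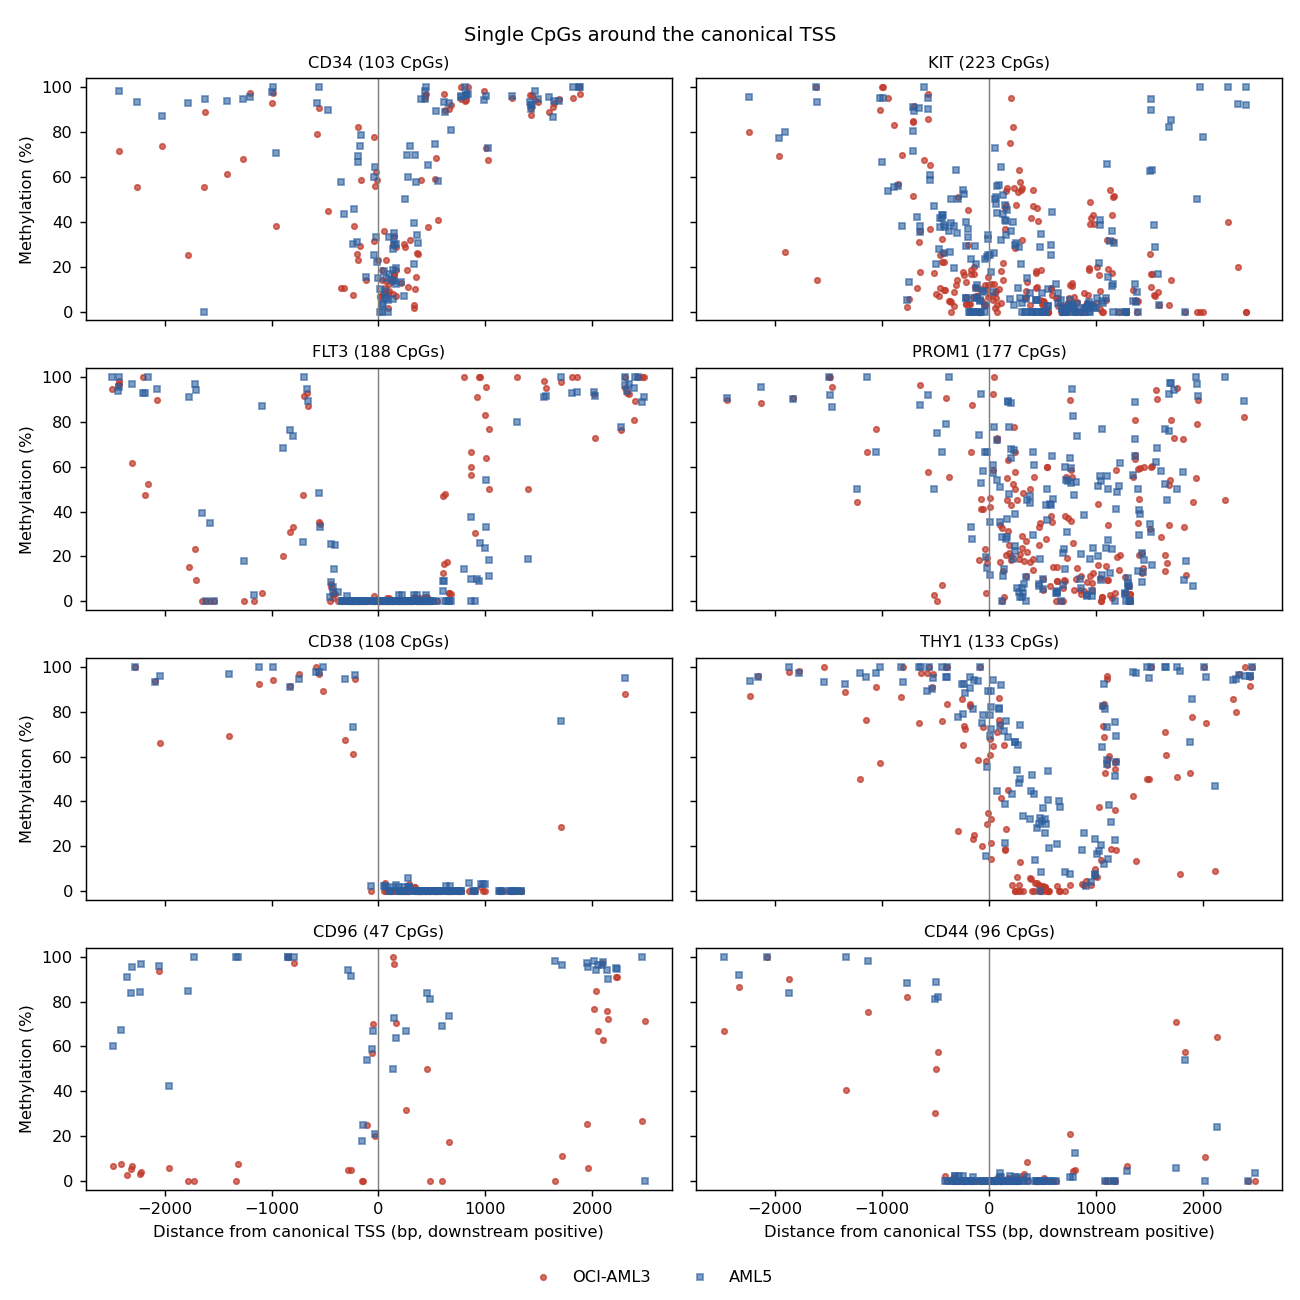
Each panel shows 1 gene, with the level (%) of each CpG dinucleotide in OCI-AML3 and AML5 against its distance (bp) from the canonical TSS. FLT3, CD38 and CD44 are near 0% over the TSS in both lines, the lines cross in KIT and PROM1, and CD96 lacks a dense group of CpG dinucleotides.

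CD96 is an immunoglobulin-like receptor of T and natural killer cells that binds PVR and is carried by leukaemic stem cells in AML. It is the longest gene of the 8, at chr3:111011566-111384597 on the plus strand, because 1 annotated transcript starts 249478 bp upstream of the canonical TSS at position 111261044. None of its TSSs lay in a CpG island. At the most upstream TSS the promoter mean was 37.9% in OCI-AML3 and 94.5% in AML5 across 18 CpG dinucleotides, of which 11 were called lower and none higher. At the canonical TSS it was 32.2% and 75.1% over 28, with 14 called lower and 1 higher. Around the remaining start, at position 111286428, it was 15.5% and 89.9% over 9, with 8 called lower. Over all CpG dinucleotides within 2000 bp of a TSS, 12.5% were called lower and 4.12% higher. CD96 thus was lower in OCI-AML3 at each of its 3 groups of TSSs.

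The difference ran through the whole of CD96. The body mean was 38.9% in OCI-AML3 and 79.1% in AML5 across 1388 CpG dinucleotides. Of these, 51.9% were called lower and 1.01% higher, beside 13.4% and 2.95% over all gene bodies. With the gene cut into 5 equal parts from the most upstream TSS, the difference was −45.9, −29.4, −36.4, −38.4 and −46.3 percentage points. AML5 itself was lowest in the second part (60.1%) and highest in the last (92.0%), whereas the parts of OCI-AML3 lay between 30.7% and 45.7%. The part upstream of the canonical TSS had means of 32.7% and 71.6%, and the canonical transcript had 45.4% and 89.2%. Over the gene and its TSS windows, the median level of single CpG dinucleotides was 27.9% in OCI-AML3 and 92.0% in AML5. Of 1443 CpG dinucleotides, 655 were under 20% in OCI-AML3 and 113 in AML5. The 200 kb on either side had means of 42.8% and 73.4%. Depth was lower in OCI-AML3 in this gene body, at 18.8 calls per CpG dinucleotide against 25.8, and the part of depth in the result was not tested.

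CD96 had 81 of the 138 runs that were lower among the 8 genes and none of the 10 that were higher, and 45 of the 81 lay outside the canonical transcript. The run with the most CpG dinucleotides, 15 in intron 5 at chr3:111311734-111312790, averaged 13.9% in OCI-AML3 and 90.1% in AML5. It overlaps ZBED2, a gene on the opposite strand at chr3:111311747-111314193, so it cannot be given to CD96 alone. At its most different CpG dinucleotide 0 of 54 calls were methylated in OCI-AML3, which allows a share of up to 5.56%, and 40 of 42 in AML5 (95.2%, Wilson 95% interval 84.2 to 98.7; adjusted P = 2.6e-22, Fisher's exact test). A run of 10 in intron 4 averaged 6.82% and 87.6%. A run of 7 just upstream of the canonical TSS, from −2487 to −2220 bp, averaged 5.07% and 82.6%, and there the most different CpG dinucleotide had 3 of 76 methylated calls in OCI-AML3 (3.95%, Wilson 95% interval 1.35 to 11.0) and 58 of 60 in AML5 (96.7%, 88.6 to 99.1).

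Among 17074 protein-coding genes with both regions measured, the genes nearest to CD96 in the 4 means (promoter and body in each line) were OR8G3P, at a distance of 10.0 percentage points, and TMPRSS11B, at 10.2. The likeness rests on 1 library per line.

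**Figure D2:**
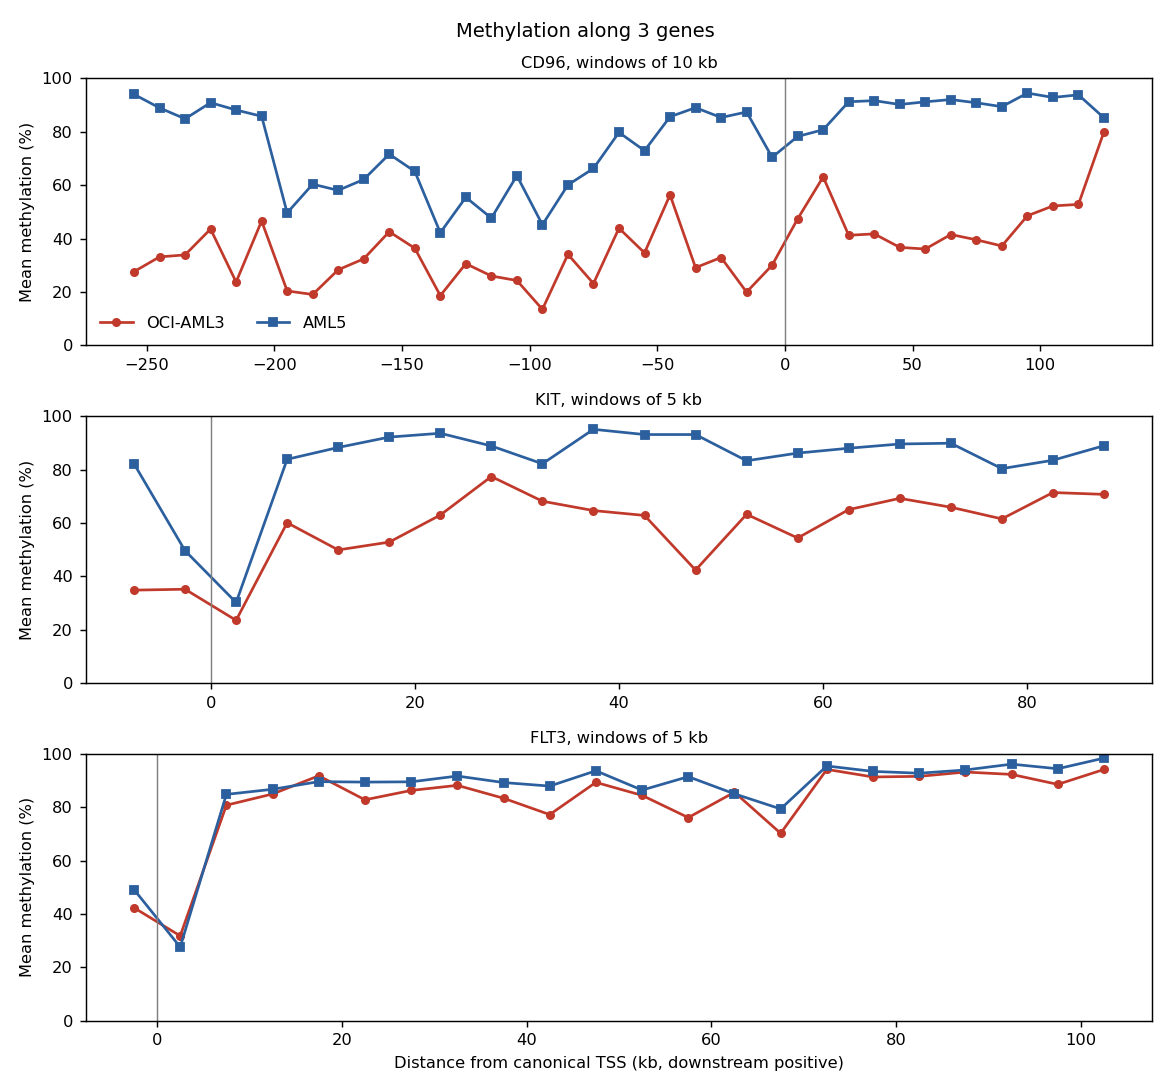
Lines give the mean level (%) along CD96 in windows of 10 kb and along KIT and FLT3 in windows of 5 kb for OCI-AML3 and AML5. The gap runs through CD96 (body means 38.9% and 79.1%) and KIT (63.6% and 88.8%), and the lines lie close together in FLT3 (85.5% and 89.8%).

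CD44 is the receptor for hyaluronan and is found on most blood cells. It lies at chr11:35160429-35253949 on the plus strand. Promoter means were 6.67% in OCI-AML3 and 8.72% in AML5 across 88 CpG dinucleotides, of which 3 were called lower and 1 higher. Body means were 83.5% and 84.8% over 325, with 10 called lower and 7 higher. The shares called lower and higher were 12.5% and 4.12% within 2000 bp of any TSS, and 13.4% and 2.95% over all gene bodies. The body difference of −1.29 percentage points was −4.84 with every call counted once. CpG dinucleotides under 20% began at −407 bp in both lines and ended at 1291 bp in OCI-AML3 (79 of 80 under 20%) and at 2768 bp in AML5 (91 of 93). Low levels returned past the earlier end, so these ends do not show how far low methylation reached. From 1500 to 2000 bp, 2 CpG dinucleotides averaged 64.3% (OCI-AML3) and 29.9% (AML5). In the same order, the 4 from 2000 to 2500 bp averaged 18.7% and 6.91%. The 8 from 2500 to 3000 bp averaged 0.417% and 4.26%. Its 1 run, of 3 CpG dinucleotides in intron 14 at chr11:35234473-35234532, averaged 61.4% in OCI-AML3 and 96.6% in AML5.

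The 10 runs that were higher in OCI-AML3 lay in 4 of the genes, KIT with 5, PROM1 with 3, and FLT3 and CD34 with 1 each, and all 10 lay in intron 1. Of the 10, 8 lay within 2000 bp of a TSS of their gene. Of the runs that were lower, 6 of 81 in CD96 and 24 of 57 in the other genes did. The shares of all runs in the genome that lie near a TSS or in intron 1 were not computed. Genome-wide the same definition gave 282640 runs that were lower and 51223 that were higher.

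Of 30 genes related to these receptors, 26 had a lower promoter mean in OCI-AML3, beside 84.7% of all promoters. Their median difference was −5.16 percentage points, beside −4.68 over all promoters, so both values were close to the background. By more than 20 percentage points 2 were lower, ENG among them, and none was higher, beside 8.61% and 1.79% of all promoters. The 4 ligands or binding partners (KITLG, FLT3LG, PVR and SPP1) had a median promoter difference of −5.07 percentage points, the 11 family relatives of the receptors −5.81, and 15 other surface genes of stem or progenitor cells −5.02. ENG, which encodes endoglin, a co-receptor of the TGF-beta family, had promoter means of 48.0% in OCI-AML3 and 70.0% in AML5 across 98 CpG dinucleotides. Gene body means were lower in OCI-AML3 in 28 of these genes, beside 92.4% of all gene bodies, and CXCR4 had no CpG dinucleotide in its body to measure. The median was −6.70 percentage points, beside −4.85 over all gene bodies. The body was lower by more than 20 in 4, beside 7.67% of all gene bodies. PVR, the ligand of CD96, had 24.6% and 26.8% at its promoter.

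Promoters of lineage marker genes were compared between the lines as well. A methylation level does not show expression, and a difference between 2 lines does not show the origin of either, so no lineage is read from these values. Of 6 myeloid markers none differed by more than 20 percentage points, and the median difference was 1.46. SPI1, the myeloid transcription factor, was at 11.5% in both lines, and MPO, which encodes myeloperoxidase of granules, was at 93.2% in OCI-AML3 and 90.3% in AML5. Of 5 T cell markers, genes of a lineage that carries CD96, none passed 20 percentage points. All 5 had a lower mean in OCI-AML3, beside 84.7% of all promoters, with a median of −13.5. The 4 B cell markers had a median of −0.813. Of the 3 erythroid markers 2, HBB and KLF1, were lower by more than 20, beside 8.61% of all promoters, with a median over the list of −34.4.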

How the data were processed

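Whole-genome bisulfite sequencing of OCI-AML3 and AML5, 1 library each, was used. The authors aligned paired-end reads to hg19 with Bismark on Bowtie 0.12.8, per the submitters' notes and the study's methods, and deposited, for each CpG dinucleotide, raw counts of methylated calls and of unmethylated calls with both strands added. Whether duplicate reads were removed is not given in the sources used here. The methylated column was settled from mitochondrial rows (0.168% and 0.101% of calls). Listed positions were checked against GRCh37. Genes, TSSs and canonical transcripts came from GENCODE release 44 lifted to GRCh37. CpG islands were found with a sliding window of 200 bp. A window passed with at least 50% GC and an observed to expected CpG ratio of at least 0.6. Overlapping windows that passed were joined, so a joined stretch can fall below these limits. The small island of CD38 at chr4:15813951-15814220 did so, with 47.0% GC.

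Means over the CpG dinucleotides that each line covered by more than 5 reads, Fisher's exact test (two-sided), Benjamini–Hochberg adjustment and runs were computed with Python 3.11.15, numpy 2.4.6, scipy 1.17.1, pandas 2.3.3 and numba 0.67.0. The test was checked on simulated counts. Wilson intervals and limits for 0 calls cover counting error only, and calls on 1 read pair are not independent. Each single CpG dinucleotide given with an interval was picked as the most different of its run. Its interval and P-value do not allow for that choice. A cytosine replaced by thymine in a line's own genome reads as unmethylated, and this and copy number were not tested. The genes and lists were chosen with earlier results of these data known. All 8 genes are named. Related genes are named where the promoter differed by more than 20 percentage points, and the 2 genes nearest in promoter and body means for a gene past that limit. KITLG, FLT3LG, PVR, SPP1, SPI1, MPO, HBB and KLF1 were named after their values were seen. Not all items that meet these rules are reported here. Alternatives covered the read minimum, averaging, window, TSS, thresholds and run settings.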

Additional observations from a re-analysis of the deposited data

How the results depend on the processing

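Of 88 alternatives over the 16 promoter and gene body differences of the 8 genes, 86 kept the sign, and both exceptions were the FLT3 promoter. The median promoter difference, −4.28 percentage points, was −5.34 with every call counted once, −6.19 within 1000 bp, −12.5 with the upstream side alone, −5.84 at the canonical TSS, −7.56 over every TSS and −2.22 without CD96, an alternative added after the data were seen. The median gene body difference, −6.80, was −6.49 over whole genes and −4.31 without CD96. The count of promoters lower by more than 20 percentage points, 1, was 2 at the canonical TSS and 2 with a limit of 10 points. For the related genes the count of 2 lower was 5 with every call counted once, 4 over every TSS and 9 with a limit of 10 points, and the count of 0 higher was 1 with the upstream side alone, 1 at the canonical TSS and 2 with a limit of 10 points. The share of CpG dinucleotides called lower, 21.9%, was 17.9% at an adjusted P-value under 0.01 and 13.8% without CD96, and the share called higher, 2.09%, was 1.68% at 0.01. The 138 runs that were lower became 43 with at least 5 CpG dinucleotides and 57 without CD96, and the 10 that were higher became 3 with at least 5 and 6 at 0.01. The cause of these shifts was not tested. No paired analysis was possible because each line had 1 library, and for the same reason no library could be left out. Depth limits single CpG dinucleotides: at the median depth 3 calls are 11.1% in OCI-AML3 and 10.0% in AML5.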
